A study of Mus musculus with 16 samples.

Results

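The enzymes and regulators of cholesterol and fatty acid synthesis, the main targets of the SREBP transcription factors, were followed in mouse undifferentiated spermatogonia by genotype and by MEK inhibitor. The members are 31 listed genes. They comprise 18 genes of the sterol branch (7 of the mevalonate arm and 11 of the squalene and sterol arm), 7 of the fatty acid branch, 5 SREBP regulators and 1 sterol carrier. Of the 31, 30 were among the 16383 genes of the table; Hmgcs1 was not analysed here. A filter on low values (at least 1 FPKM in at least 4 libraries) kept 29 members among 12907 genes, and Tm7sf2 did not pass it. FPKM counts fragments, divides them by gene length in kilobases and scales them by the size of the library.

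Cells make cholesterol from acetyl-CoA through mevalonate, isoprenoids, squalene and lanosterol, and make fatty acids from the same precursor by carboxylation, chain assembly, elongation and desaturation. Both branches are driven by SREBP transcription factors, which stay in the endoplasmic reticulum bound to the escort protein SCAP while INSIG proteins hold that complex, and which reach the nucleus after sterol loss frees SCAP to carry them to the Golgi for cleavage. In germ cells the same route supplies membrane lipid for dividing spermatogonia, and sterol intermediates downstream of lanosterol are known as meiosis-activating sterols.

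All mice were adult, received busulfan at 10 mg/kg, an alkylating drug that depletes dividing germ cells, and had their undifferentiated spermatogonia sorted by flow cytometry on day 10; no group without busulfan was analysed here. The groups were a germline knockout of Spry4 (Spry4 G-KO, column names with GCRT_Spry4KO) given PD0325901, the same knockout given vehicle, wild-type mice (WT, column names with Spry4ff) given PD0325901, and WT mice given vehicle, with 4 libraries each. PD0325901, which blocks the kinases MEK1 and MEK2 upstream of ERK, was injected daily for 7 days from day 3 at 2.5 mg/kg, and the vehicle was 10% DMSO in PBS. Spry4 is a Sprouty protein, which dampens growth factor signalling to ERK. GCRT is part of the knockout names and not of the WT names, and any effect of what it stands for cannot be told apart from that of losing Spry4. The labels do not state the sort markers, the deleted part of Spry4, whether cells of several mice were pooled or whether libraries of a group came from separate mice, so the p-values cover the library-to-library spread, which may be technical.

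Library size, estimated from the steps between low FPKM values, was 23340000 to 36590000 reads, and 12257 to 12805 genes reached 1 FPKM. Whole multiples of these sizes cannot be told apart from them with certainty, and the smallest that fitted was taken. The same limit holds for the read numbers of single genes given below. Spry4 itself had 13.0, 8.23, 10.97 and 19.3 FPKM in knockout libraries given PD0325901, against 15.9, 19.6, 27.4 and 23.0 FPKM in WT libraries given PD0325901. It had 11.97, 10.1, 7.28 and 14.7 FPKM in knockout libraries given vehicle, against 22.6, 23.9, 21.9 and 19.9 FPKM in WT libraries given vehicle. Spry4 was therefore lower on average but still measured in the knockout libraries, with no overlap between genotypes under vehicle and an overlap under PD0325901 (log2 difference −1.01 and −0.75, adjusted p = 0.9998 and 0.988 by limma). All 7 germ cell markers passed the filter. Their summed level was 674 to 868.3 FPKM (knockout, PD0325901), 624.2 to 846.9 (knockout, vehicle), 612.7 to 956.9 (WT, PD0325901) and 749.9 to 802 (WT, vehicle). All 7 markers of peritubular myoid cells, the smooth-muscle-like cells around the tubules, also passed. Their summed level ran from 3326 to 9740 FPKM (knockout, PD0325901), 1351 to 7079 (knockout, vehicle), 1152 to 11890 (WT, PD0325901) and 2472 to 7695 (WT, vehicle). The peritubular range thus lay above the germ cell range in every group. Within each knockout group, libraries ranked by Spry4 had the same order as by Acta2, a marker of that list. In neither WT group was this so. Which cells gave the Spry4 reads left in the knockout libraries was not tested. Markers of differentiating spermatogonia summed to 60.3 to 112.7 FPKM over libraries, and meiotic markers to 45.8 to 199.3 FPKM. Markers of other testis cells were lower but not absent. Of 2 Leydig cell markers in the table, Star was below 1 FPKM in every library and Lhcgr passed the filter (sum 2.72 to 24.7 FPKM over libraries). Of 6 Sertoli markers, Wt1 and Gata4 passed and Sox9, Cldn11 and Dhh were below 1 FPKM in every library (sum 4.13 to 12.6 FPKM). Of 6 leukocyte markers, Cd68 passed and Ptprc, Csf1r, Adgre1 and C1qa were below 1 FPKM in every library (sum 2.48 to 7.55 FPKM), and 4 of 5 endothelial markers passed (sum 4.91 to 14.7 FPKM). The spermatid sum reached 2780 FPKM in knockout vehicle library 3, against at most 131.6 FPKM in the other groups. In bulk samples, fewer cells of a type and less RNA per cell cannot be told apart.

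Promoters of 23 members were in the RefSeq table used here (GRCm38.p6), and 5 of them are printed because they belong to the genes that varied most closely with the sterol branch mean across libraries: 4 with a CCAAT box, the letters bound by NF-Y, which is known to work beside SREBP at sterol gene promoters, and 1 without. Each is the 250 bases before the annotated start, 5′ to 3′ on the gene's strand, with CCAAT or its reverse complement ATTGG in capitals.
Cyp51: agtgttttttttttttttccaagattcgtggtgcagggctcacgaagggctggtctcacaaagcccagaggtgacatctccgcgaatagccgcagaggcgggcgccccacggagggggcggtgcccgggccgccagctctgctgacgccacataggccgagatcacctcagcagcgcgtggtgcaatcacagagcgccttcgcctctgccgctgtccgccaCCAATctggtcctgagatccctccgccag
Lss: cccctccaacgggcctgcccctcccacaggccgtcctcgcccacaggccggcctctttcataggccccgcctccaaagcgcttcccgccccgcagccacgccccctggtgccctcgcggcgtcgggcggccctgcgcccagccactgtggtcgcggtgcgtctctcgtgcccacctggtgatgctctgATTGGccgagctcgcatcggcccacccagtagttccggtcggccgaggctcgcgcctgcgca
Msmo1: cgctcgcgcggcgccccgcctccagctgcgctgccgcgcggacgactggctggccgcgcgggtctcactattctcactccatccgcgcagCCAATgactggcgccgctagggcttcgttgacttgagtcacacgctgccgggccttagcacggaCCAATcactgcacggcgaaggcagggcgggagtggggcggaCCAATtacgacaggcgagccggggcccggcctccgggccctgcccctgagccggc
Insig1: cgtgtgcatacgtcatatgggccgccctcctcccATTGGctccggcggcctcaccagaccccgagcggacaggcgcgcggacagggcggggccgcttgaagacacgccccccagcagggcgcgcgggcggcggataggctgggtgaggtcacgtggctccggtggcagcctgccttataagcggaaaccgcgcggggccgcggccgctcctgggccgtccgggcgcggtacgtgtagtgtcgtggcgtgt
Fads2: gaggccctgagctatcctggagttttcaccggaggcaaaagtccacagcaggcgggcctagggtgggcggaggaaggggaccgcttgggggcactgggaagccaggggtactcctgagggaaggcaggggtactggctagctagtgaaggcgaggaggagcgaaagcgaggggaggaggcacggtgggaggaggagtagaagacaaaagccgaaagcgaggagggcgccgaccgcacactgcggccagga
The windows are chr5:4104698-4104947 on the minus strand for Cyp51, chr10:76531355-76531604 on the plus strand for Lss, chr8:64733579-64733828 on the minus strand for Msmo1, chr5:28071162-28071411 on the plus strand for Insig1 and chr19:10101504-10101753 on the minus strand for Fads2. The Cyp51 box lay 27 bases before the start and the Lss box 60 bases before it. Msmo1 had 3 boxes, at 158, 94 and 53 bases, and Insig1 had 1 near the upstream end of its window. These positions depend on the annotated start. In GENCODE M21 the genes begin further upstream, Cyp51 at 4104746 and Msmo1 at 64733792 on the minus strand. The boxes of Cyp51 and Msmo1 lie inside the gene by that annotation, and those of Lss and Insig1 before it. Over both strands, CCAAT was present in the 250 bases of 18 of the 23 members, which is 78.26%. The share was 37.49% of 27025 genes and 40.81% of the 9736 tested genes that had a window. CCAAT was present in 13 of 14 sterol branch promoters and in 1 of 4 fatty acid branch promoters, that of Fasn. Acat2, Acaca, Elovl6, Fads2 and Scap had none. The form TCACNCCAC of the sterol response element, on either strand, was in none of the 23 windows and in 1.225% of genes. A match is a string of letters and was not tested as a binding site.

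By median over the 16 libraries, 14 members were at or above 10 FPKM, 15 lay between 1 and 10 FPKM and 1, Tm7sf2, lay below 1; 19 members were above 7.75 FPKM, the median over all genes tested. The median coefficient of variation over libraries was 12.3% for the members and 15.7% for all genes tested. FPKM is per length, but the gene lengths used are not given and some members share sequence with other genes. Levels of different genes can therefore be set beside each other only roughly.

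**Figure D1:**
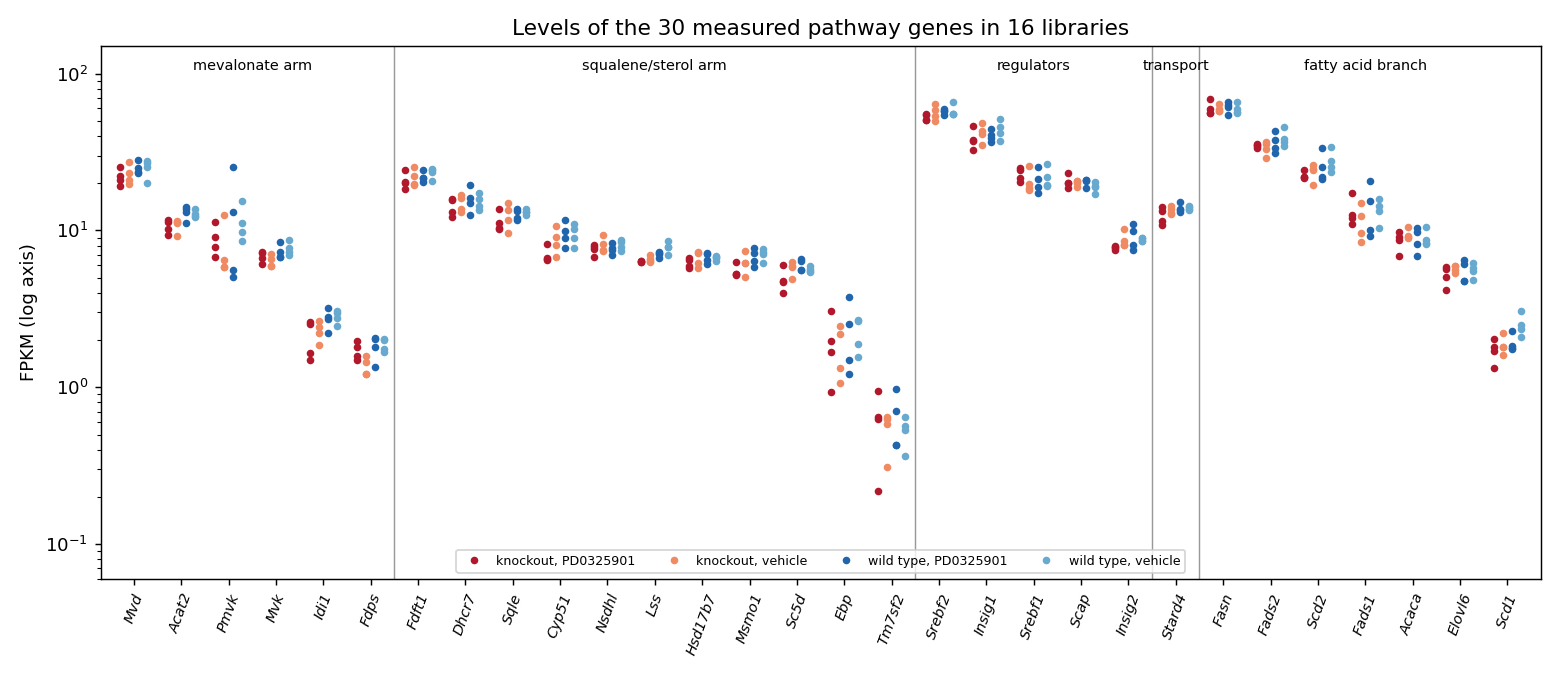
FPKM of the 30 measured genes (vertical log axis) in each of the 16 libraries, 1 point per library, coloured by group and ordered by pathway arm and median level. Fasn and Srebf2 were highest and Tm7sf2 lowest, and the spread of Pmvk, Tm7sf2 and Ebp stands out from that of the other genes.

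In the mevalonate arm, Mvd, the decarboxylase that makes isopentenyl diphosphate, had the highest median at 23.4 FPKM (19.3 to 28.3 over libraries). Acat2, the cytosolic thiolase that joins acetyl-CoA units, had a median of 11.6 FPKM, and the kinases Pmvk and Mvk had 8.87 and 7.05 FPKM. Idi1, the isopentenyl diphosphate isomerase, and Fdps, farnesyl diphosphate synthase, were lowest with medians of 2.56 and 1.72 FPKM. Pmvk ranged from 5.04 to 25.4 FPKM, the widest of the members. Pseudogenes or paralogs share 75-base stretches with several of these genes: 33.9% of those in Acat2 (with Acat3), 23.5% in Fdps and 16.7% in Idi1, and reads could have been split or moved between copies there.

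In the squalene and sterol arm, Fdft1, squalene synthase, stood highest at a median of 21.6 FPKM, followed by Dhcr7, which makes cholesterol from 7-dehydrocholesterol, at 15.3 FPKM and Sqle, squalene epoxidase, at 12.8 FPKM. Cyp51, the lanosterol demethylase, had a median of 8.53 FPKM, Nsdhl and Hsd17b7, which act in removal of the sterol methyl groups, 7.80 and 6.57 FPKM, and Lss, lanosterol synthase, 6.80 FPKM. Msmo1, the methylsterol oxidase, and Sc5d, the lathosterol oxidase, had 6.25 and 5.66 FPKM. Ebp, the sterol isomerase, had 1.93 FPKM, and Tm7sf2, a sterol reductase, 0.602 FPKM (0.217 to 0.972).

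Fasn, fatty acid synthase, was the highest member at 59.2 FPKM (54.5 to 68.3) and lay above Srebf2 in 13 of 16 libraries. The desaturases followed with Fads2 at 35.3, Scd2 at 24.3 and Fads1 at 12.5 FPKM, then Acaca, acetyl-CoA carboxylase, at 8.97 FPKM and the elongase Elovl6 at 5.64 FPKM. Scd1, the other stearoyl-CoA desaturase, had 1.82 FPKM, and the ratio of Scd2 to Scd1 was between 10.1 and 16.7 in every library. Acaca shares 26.8% of its 75-base stretches with other annotated genes, and Scd1 and Scd2 share 3.2% and 1.8% of theirs.

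Among the regulators, Srebf2, the SREBP that favours sterol genes, had a median of 55.2 FPKM and Srebf1, which favours fatty acid genes, 20.8 FPKM; the ratio of Srebf2 to Srebf1 was between 2.19 and 3.43 in every library. Insig1 had 40.9 FPKM and Insig2 8.33 FPKM, a ratio between 3.73 and 5.995. Scap had 20.1 FPKM, and Stard4, a soluble carrier of cholesterol, 13.6 FPKM. Neighbours in the order often crossed: Mvd and Fdft1 overlapped, Fdft1 was above Srebf1 in 8 of 16 libraries, and Sqle was above Fads1 in 6 of 16.

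The first question was whether Spry4 loss in germ cells goes with a different level of the pathway. No member passed limma at an adjusted p under 0.05 in any of the 7 comparisons, and neither did any of the 12907 genes (0% called). The differences that follow are therefore values with their errors, and the counts at an unadjusted p under 0.05 are given beside the share of all genes that reach it in that direction. Members were chosen with earlier results of these data known, and many vary together across libraries. Counts of lower members are therefore a description and not separate results. Differences are on the log2(FPKM + 0.5) scale, knockout minus WT, and understate those of low genes.

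Under vehicle, 23 of the 29 tested members were lower in the knockout, against 52.8% of all genes. The sterol branch was lower for 14 of 16 genes with a median log2 difference of −0.16, and all 6 tested mevalonate genes were below 0 with a median of −0.25. The fatty acid branch was lower for 4 of 7 genes with a median of −0.21, and the median over all genes tested was −0.01. At an unadjusted p under 0.05, 5 members were lower and 0 higher (1.94% of all genes passed it, 0.721% of all genes in the lower direction). The libraries of 3 members, Acat2, Fdps and Lss, did not overlap between genotypes in the lower direction (0.659% of all genes), and 0 members did so in the higher direction (0.806% of all genes).

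Lss had 6.31, 6.96, 6.56 and 6.43 FPKM in knockout libraries given vehicle, against 7.88, 7.83, 8.57 and 6.96 FPKM in WT libraries given vehicle. The knockout libraries were all below the WT libraries, but knockout library 2 and WT library 4 differed only in the fourth digit (6.960 and 6.963 FPKM). The log2 difference was −0.23 (SE 0.066, unadjusted p = 0.00356, adjusted p = 0.9998 by limma).

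Fdps had 1.21, 1.59, 1.46 and 1.22 FPKM in knockout libraries given vehicle, against 2.02, 1.76, 2.02 and 1.67 FPKM in WT libraries given vehicle. Every knockout value lay below every WT value, at an estimated 145 to 279 reads per library. The log2 difference was −0.34 (SE 0.124, unadjusted p = 0.0148 by limma).

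Acat2 had 11.6, 11.3, 11.2 and 9.23 FPKM in knockout libraries given vehicle, against 12.3, 13.7, 12.8 and 12.1 FPKM in WT libraries given vehicle, again without overlap. Its log2 difference was −0.23 (SE 0.094, unadjusted p = 0.0287 by limma). The other 2 members under that threshold were Scd1, at 1.80, 2.22, 1.60 and 1.81 FPKM in knockout and 2.50, 2.34, 3.05 and 2.09 FPKM in WT libraries, and Mvk, at 5.92, 6.61, 5.94 and 7.12 FPKM in knockout and 7.70, 7.31, 8.72 and 6.97 FPKM in WT libraries. Both overlapped in 1 knockout library, the highest of its group, which lay above the lowest WT library.

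Under PD0325901, 27 of the 29 members were lower in the knockout, against 53.8% of all genes. All 16 sterol genes were below 0 with a median log2 difference of −0.17, and all 7 fatty acid genes with a median of −0.06, while the median of all genes was −0.01. At an unadjusted p under 0.05, 6 members, all of the sterol branch, were lower and 0 higher (4.69% of all genes passed it, 3.08% in the lower direction). Lss did not overlap between genotypes in the lower direction (1.41% of all genes), and 0 members did so in the higher direction (0.868% of all genes).

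Cyp51 had 6.57, 8.17, 6.49 and 6.62 FPKM in knockout libraries given PD0325901, against 8.89, 7.74, 9.89 and 11.7 FPKM in WT libraries given PD0325901. The knockout libraries were lower apart from library 2, which was above WT library 2. The log2 difference was −0.42 (SE 0.149, unadjusted p = 0.0136, adjusted p = 0.988 by limma), the largest in size of the 29 members in that comparison. It was −0.17 within library numbers 440 to 447 of the column names and −0.67 within 448 to 455.

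Acat2 had 9.36, 11.7, 11.3 and 10.3 FPKM in knockout libraries given PD0325901, against 14.1, 11.2, 13.0 and 13.6 FPKM in WT libraries given PD0325901, and WT library 2 lay within the knockout range. Lss had 6.35, 6.28, 6.38 and 6.26 FPKM in knockout and 7.33, 6.64, 7.05 and 7.23 FPKM in WT libraries, without overlap. Their log2 differences were −0.27 (SE 0.094, unadjusted p = 0.011) and −0.15 (SE 0.066, unadjusted p = 0.0417) by limma.

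Sc5d had 4.71, 6.04, 4.74 and 3.97 FPKM in knockout libraries given PD0325901, against 6.37, 5.63, 6.55 and 5.58 FPKM in WT libraries given PD0325901. Msmo1 had 5.26, 6.28, 5.25 and 5.17 FPKM in knockout and 7.18, 5.84, 7.68 and 6.35 FPKM in WT libraries, and Idi1 had 2.52, 2.59, 1.66 and 1.496 FPKM in knockout and 2.71, 2.79, 2.22 and 3.2 FPKM in WT libraries. Knockout libraries 1, 3 and 4 lay below every WT library for Sc5d and Msmo1, and knockout libraries 3 and 4 did for Idi1, while the others overlapped. Knockout library 2 was the highest of its group in all 3, as it was for Cyp51 and Acat2.

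**Figure D2:**
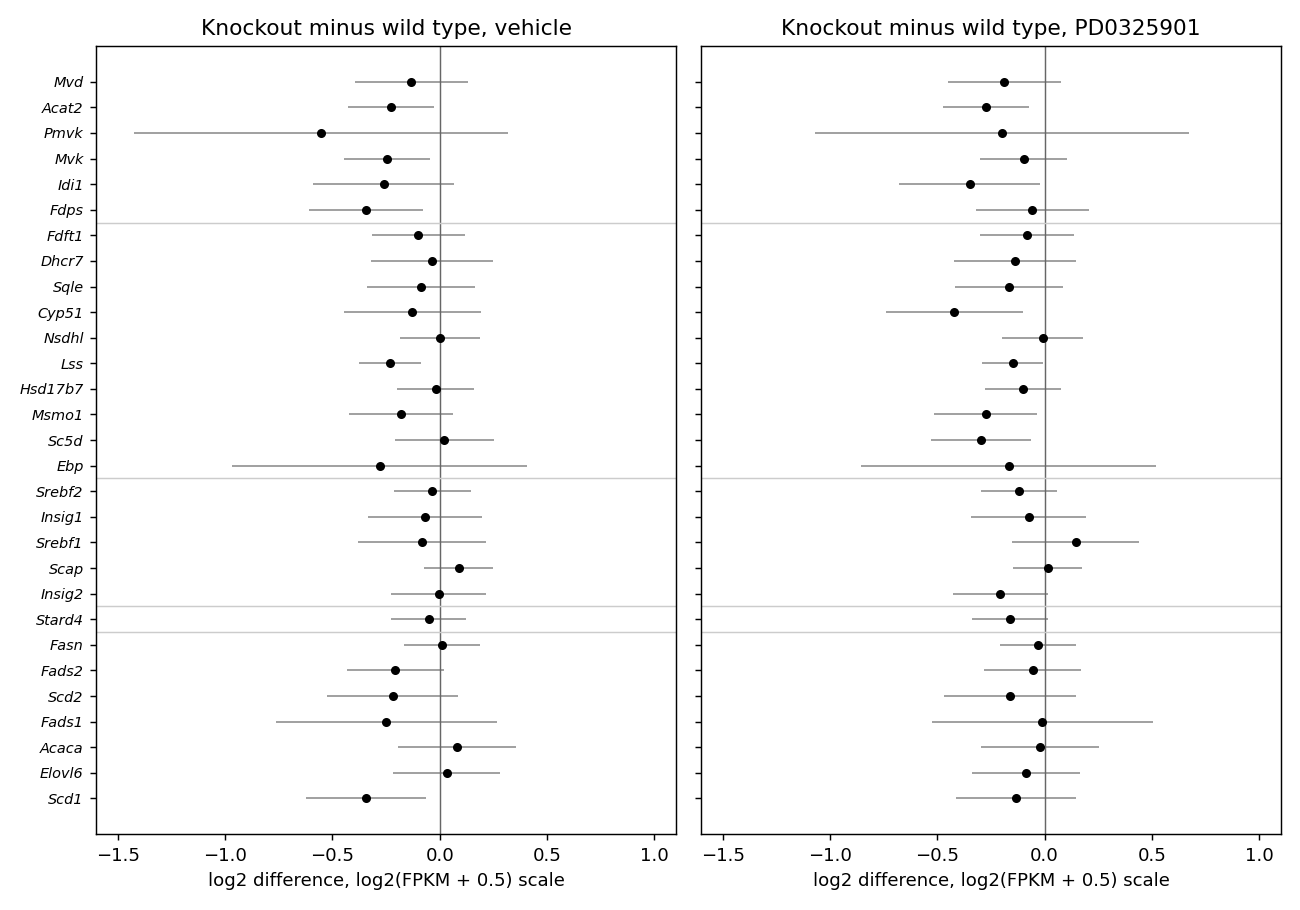
Log2 difference of knockout minus WT for the 29 tested genes under vehicle (left) and PD0325901 (right), with 95% intervals from limma as grey lines; horizontal rules separate the arms. Most points lie left of 0 in both panels, and 5 (vehicle) and 6 (PD0325901) intervals exclude it, none with an adjusted p under 0.05.

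Averaged over both treatments, 26 of 29 members were lower in the knockout and all 16 tested sterol genes were (55.9% of all genes). This average is built from the 2 comparisons above and is not a further result. The median log2 difference was −0.18 for the sterol branch, −0.13 for the fatty acid branch and −0.02 for all genes. At an unadjusted p under 0.05, 8 members were lower and 0 higher (4.35% of all genes passed it, 2.27% in the lower direction): Lss, Acat2, Msmo1, Idi1, Scd1, Cyp51, Mvk and Fdps, of which Scd1 alone is a fatty acid gene. Lss averaged 6.44 ± 0.231 FPKM in knockout and 7.44 ± 0.619 FPKM in WT libraries (SD, n = 8 each), with a log2 difference of −0.19 (95% interval −0.29 to −0.09, unadjusted p = 0.00116, adjusted p = 0.998 by limma). Acat2 averaged 10.7 ± 0.979 FPKM in knockout and 12.9 ± 0.976 FPKM in WT libraries (SD, n = 8 each), with a log2 difference of −0.25 (95% interval −0.39 to −0.11). Fasn differed by −0.01 (95% interval −0.13 to 0.12), and Acaca by 0.03 (95% interval −0.16 to 0.22).

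The regulators spread around 0. Averaged over treatments, Srebf2 differed by −0.08 (95% interval −0.20 to 0.05), Srebf1 by 0.03 (−0.18 to 0.24), Scap by 0.05 (−0.06 to 0.17), Insig1 by −0.07 (−0.26 to 0.12) and Insig2 by −0.11 (−0.26 to 0.05) on the log2 scale. Stard4 differed by −0.11 (−0.23 to 0.02). None had an unadjusted p under 0.05 in any comparison.

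Beside the lower sterol genes, the peritubular markers lay on opposite sides of 0 in the 2 genotype comparisons: 7 of 7 were lower in the knockout under vehicle (median log2 difference −0.66) and 7 of 7 were higher under PD0325901 (median 0.53). In either comparison 0 of them had an unadjusted p under 0.05, and the 95% interval of Acta2 under vehicle ran from −2.32 to 0.99. Markers of 1 cell type vary together and are not separate results. The sterol branch median with the mean of that list as a term in the fit was −0.15 in both comparisons, against −0.16 under vehicle and −0.17 under PD0325901 without it. With the same term the fatty acid branch median was −0.042 under vehicle, against −0.21 without it, and −0.115 under PD0325901, against −0.06 without it. Spermatid markers were higher in the knockout for 7 of 7 tested genes averaged over treatments (median 0.72), 0 of them with an unadjusted p under 0.05. Among them, Prm1 under vehicle had 739.2 FPKM in knockout library 3 but 16.5, 1.77 and 0.853 FPKM in the other knockout libraries. The WT libraries given vehicle had 19.0, 0.750, 12.1 and 14.3 FPKM, and the 95% interval of the log2 difference ran from −2.85 to 4.39. Endothelial markers were higher in the knockout for 4 of 4 tested genes under vehicle (median 0.54) and for 1 of 4 under PD0325901 (median −0.03). Under vehicle 2 of them had an unadjusted p under 0.05, which 1.94% of all genes passed, and under PD0325901 0 did. These were Cdh5 at 0.76 and Kdr at 0.46 (unadjusted p = 0.0137 and 0.0295 by limma). The leukocyte marker Cd68 differed by 0.26 under vehicle and 0.52 under PD0325901 (unadjusted p = 0.154 and 0.00875 by limma). The part of these markers in the result was not tested. The meaning of those library numbers is not given, and each set holds 2 libraries of each group; averaged over treatments, the sterol median was −0.18 in the lower numbers and −0.19 in the higher numbers, and Lss gave −0.18 and −0.20. The fatty acid median was −0.01 in the lower numbers and −0.25 in the higher, and under PD0325901 it was above 0, at 0.08, in the lower numbers and −0.20 in the higher. Leaving out knockout library 1 given vehicle put the sterol median under vehicle at −0.08.

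The branch means by library show the same order of groups. The sterol branch mean, over 16 genes on the log2(FPKM + 0.5) scale, was 2.87 ± 0.051 in knockout libraries given PD0325901, 2.915 ± 0.088 in knockout libraries given vehicle, 3.055 ± 0.102 in WT libraries given PD0325901 and 3.09 ± 0.095 in WT libraries given vehicle (SD, n = 4 each). The 4 knockout libraries given PD0325901 ran from 2.81 to 2.93 and the 4 WT libraries given it from 2.93 to 3.17, so that knockout library 2 (2.934) and WT library 2 (2.925) crossed. Knockout vehicle library 2, at 3.03, lay above WT vehicle library 4, at 2.96. Fatty acid branch means overlapped more widely, at 3.73 ± 0.060, 3.755 ± 0.106, 3.80 ± 0.090 and 3.88 ± 0.120 in the same order of groups.

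**Figure D3:**
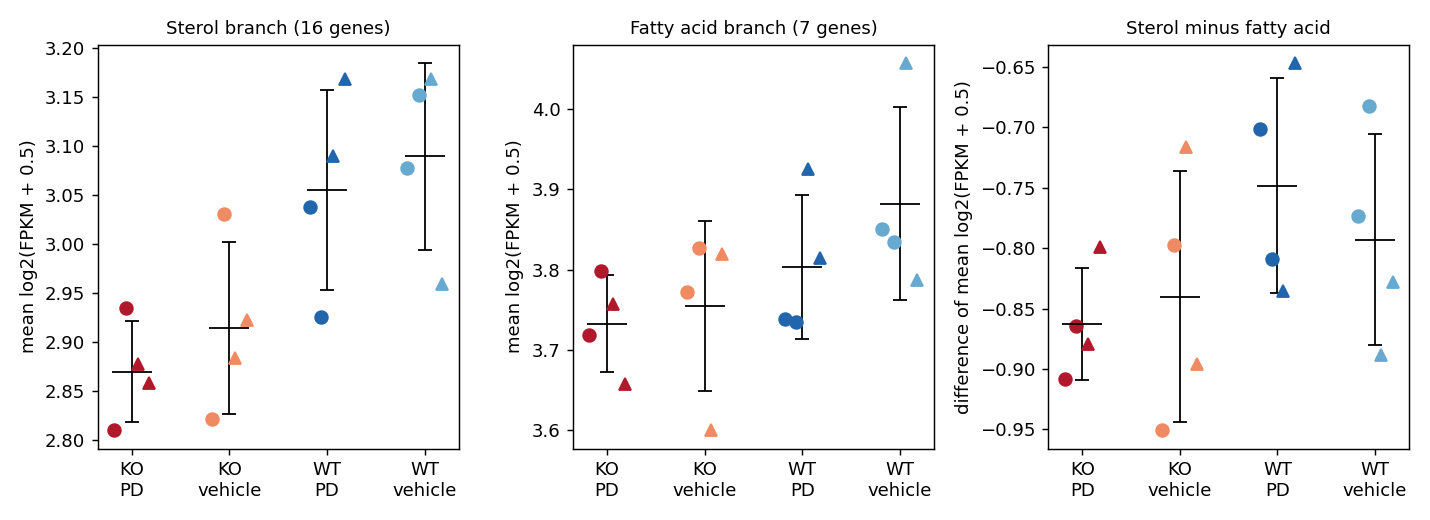
Mean log2(FPKM + 0.5) over the sterol branch (left, 16 genes) and the fatty acid branch (middle, 7 genes), and their difference (right), per library; bars give the group mean and SD, circles library numbers 440 to 447 and triangles 448 to 455. Knockout libraries lie mostly below WT in the left panel and overlap WT in the other panels.

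To set the branches against each other within a library, the fatty acid mean was subtracted from the sterol mean. The difference was −0.86 ± 0.046 in knockout libraries given PD0325901, −0.84 ± 0.104 in knockout libraries given vehicle, −0.75 ± 0.089 in WT libraries given PD0325901 and −0.79 ± 0.087 in WT libraries given vehicle (SD, n = 4 each). The ranges of all 4 groups overlapped, from −0.91 to −0.80, from −0.95 to −0.72, from −0.84 to −0.65 and from −0.89 to −0.68 in that order. These values do not place the sterol branch apart from the fatty acid branch by genotype or by inhibitor beyond the spread between libraries.

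The next question was whether MEK inhibition goes with a different level of the pathway in either genotype. In WT mice, 20 of 29 members were lower with PD0325901 (46% of all genes), with medians of −0.04 for the sterol branch and −0.03 for the fatty acid branch, against 0.01 for all genes. Leaving out 1 library moved the sterol median between −0.09 (without WT vehicle library 4) and −0.0051 (without WT library 2 given PD0325901), and the fatty acid median between −0.18 (without WT library 3 given PD0325901) and −0.0155 (without WT vehicle library 3). In the knockout, 20 of 29 were lower (49.5% of all genes), with medians of −0.06 for both branches and 0.002 for all genes. Leaving out 1 library moved the fatty acid median between −0.14 (without knockout vehicle library 3) and −0.0056 (without knockout library 4 given PD0325901), and the sterol median between −0.11 (without knockout vehicle library 4) and −0.0168 (without knockout vehicle library 2). These comparisons and those between genotypes share libraries and are not independent of each other.

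Scd1 was the member with an unadjusted p under 0.05 in WT mice (0.891% of all genes passed it, 0.434% in the lower direction). It had 1.75, 1.79, 2.30 and 1.83 FPKM in WT libraries given PD0325901, against 2.50, 2.34, 3.05 and 2.09 FPKM in WT libraries given vehicle. Inhibitor libraries 1, 2 and 4 lay below all vehicle libraries, and library 3 lay within their range. The log2 difference was −0.31 (SE 0.13, unadjusted p = 0.0342, adjusted p = 0.9999 by limma), and Scd2, its close relative, differed by −0.12 (95% interval −0.43 to 0.18). Averaged over genotypes Scd1 was again the only member under that threshold, at −0.20 (unadjusted p = 0.0466; 1.84% of all genes passed it, 0.968% in the lower direction), and 0 members had inhibitor libraries all below the vehicle libraries (0.00775% of all genes).

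In the knockout, 0 members had an unadjusted p under 0.05, where 2.96% of all genes passed it, 1.81% in the lower direction. Insig2, which holds the SREBP escort in the endoplasmic reticulum, had 7.81, 7.68, 7.90 and 7.56 FPKM in knockout libraries given PD0325901, against 8.11, 8.13, 10.1 and 8.62 FPKM in knockout libraries given vehicle. Its libraries did not overlap in the lower direction (1.15% of all genes), no member did so in the higher (0.55% of all genes), and the log2 difference was −0.16 (SE 0.103, unadjusted p = 0.139 by limma). In WT mice the Insig2 values were 8.09, 7.46, 9.97 and 10.9 FPKM with PD0325901 and 8.94, 8.53, 8.61 and 8.88 FPKM with vehicle, which overlapped.

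The smallest unadjusted p of a member in the knockout was that of Sc5d, which had 4.71, 6.04, 4.74 and 3.97 FPKM with PD0325901 and 5.83, 6.33, 4.87 and 5.97 FPKM with vehicle. Its log2 difference was −0.23 (SE 0.109, unadjusted p = 0.0535 by limma). Cyp51 had 6.57, 8.17, 6.49 and 6.62 FPKM with PD0325901 and 6.73, 10.6, 8.08 and 9.06 FPKM with vehicle, a log2 difference of −0.28 (SE 0.149, unadjusted p = 0.0838 by limma). Fdps went the other way, at 1.57, 1.98, 1.49 and 1.80 FPKM with PD0325901 and 1.21, 1.59, 1.46 and 1.22 FPKM with vehicle, a log2 difference of 0.24 (SE 0.124, unadjusted p = 0.0713 by limma). In all 3 genes the groups overlapped. Peritubular markers were higher with PD0325901 in the knockout for 7 of 7 genes (median 0.69), spermatid markers lower for 7 of 7 (median −0.73) and endothelial markers lower for 4 of 4 (median −0.45). In WT mice, peritubular markers were lower with PD0325901 for 7 of 7 genes (median −0.48) and spermatid markers for 7 of 7 (median −0.56). Endothelial markers were lower there for 2 of 4 (median 0.06). In each of these lists 0 genes had an unadjusted p under 0.05 in either genotype, and their part in these values was not tested.

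The interaction, the difference between genotypes in the change with PD0325901, had an unadjusted p under 0.05 for 0 members and for 1.71% of all genes. Its median was −0.05 over the sterol branch and 0.06 over the fatty acid branch, and leaving out 1 library turned the sign of either. The sterol median ran from −0.09 (without knockout vehicle library 4) to 0.0181 (without knockout vehicle library 2), and the fatty acid median from −0.0453 (without WT vehicle library 3) to 0.196 (without WT library 3 given PD0325901). Sc5d had the smallest p, at −0.32 (SE 0.154, unadjusted p = 0.0572, adjusted p = 0.9993 by limma), followed by Fdps at 0.29 (95% interval −0.09 to 0.66) and Insig2 at −0.20 (95% interval −0.52 to 0.11). The intervals are wide against the differences, and a p that misses the threshold does not show that the genotypes responded alike. For the peritubular markers the interaction was above 0 for 7 of 7 genes (median 1.18), 0 of them with an unadjusted p under 0.05. For the endothelial markers it was below 0 for 4 of 4 (median −0.53), 1 of them with an unadjusted p under 0.05. The part of these markers was not tested.

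Genes around the pathway were followed from 3 further lists. Of 18 tested other sterol and SREBP genes, 10 were lower in the knockout under vehicle (52.8% of all genes) and 17 under PD0325901 (53.8% of all genes). In this list 0 genes passed the adjusted threshold. Nus1, a subunit of the prenyltransferase that draws on the same isoprenoids, averaged 10.2 ± 0.742 FPKM in knockout and 12.3 ± 0.819 FPKM in WT libraries given PD0325901 (SD, n = 4 each). Its libraries did not overlap in the lower direction (1.41% of all genes), and the log2 difference was −0.26 (unadjusted p = 0.00575 by limma). Ggps1, which makes geranylgeranyl diphosphate, averaged 8.84 ± 1.26 FPKM in knockout and 10.6 ± 0.571 FPKM in WT libraries given PD0325901 (log2 difference −0.25, unadjusted p = 0.0221 by limma). In that comparison 3.08% of all genes had an unadjusted p under 0.05 in the lower direction.

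Of 16 tested other fatty acid genes, 9 were lower in the knockout under vehicle (52.8% of all genes) and 12 under PD0325901 (53.8% of all genes). Hacd3, a dehydratase of long-chain fatty acid elongation, averaged 13.0 ± 1.17 FPKM in knockout libraries given PD0325901, against 15.7 ± 1.37 FPKM in WT libraries given PD0325901 (log2 difference −0.27, unadjusted p = 0.00559 by limma) and 15.3 ± 0.716 FPKM in knockout libraries given vehicle (log2 difference −0.24, unadjusted p = 0.0121 by limma). An unadjusted p under 0.05 in the lower direction was reached by 3.08% of all genes in the first comparison and 1.81% in the second. Erlin2, a membrane protein of the endoplasmic reticulum, belongs to the other sterol and SREBP genes. It averaged 18.5 ± 0.819 FPKM in knockout and 16.4 ± 0.128 FPKM in WT libraries given vehicle (log2 difference 0.17, unadjusted p = 0.0103 by limma). Its libraries did not overlap in the higher direction (0.806% of all genes). It was the only gene of that list with an unadjusted p under 0.05 under vehicle, where 1.94% of all genes passed, and was higher in the knockout. Of 16 tested genes of sterol efflux, uptake, storage and LXR signalling, 8 were lower in the knockout under vehicle (52.8% of all genes) and 10 under PD0325901 (53.8% of all genes). Apoe, the lipid-carrying apolipoprotein, averaged 7.83 ± 2.26 FPKM in knockout and 5.78 ± 0.909 FPKM in WT libraries over both treatments (SD, n = 8 each). The log2 difference was 0.37 (unadjusted p = 0.0371 by limma), where 4.35% of all genes had an unadjusted p under 0.05.

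Across the 16 libraries, some members varied with the peritubular marker Acta2, the smooth-muscle actin, and others did not. Acta2 had 1803, 1345, 1800 and 3937 FPKM in knockout libraries given PD0325901, 1751, 987.8, 538.2 and 2910 FPKM in knockout libraries given vehicle, 570.6, 366.8, 5095 and 3035 FPKM in WT libraries given PD0325901 and 944.8, 2890, 3154 and 1986 FPKM in WT libraries given vehicle. It was thus both highest and lowest within the WT libraries given PD0325901. Of 29 correlations with Acta2 on the log2 scale, 6 were positive and 4 negative at an adjusted p under 0.05 (Pearson, 100000 permutations, two-sided, Benjamini-Hochberg over 29). An absolute r of at least 0.6 was reached by 10 of 29 members and by 46.45% of all genes tested.

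Fads1, the delta-5 desaturase, had 12.02, 10.9, 12.6 and 17.3 FPKM in knockout libraries given PD0325901, 12.4, 9.68, 8.45 and 14.9 FPKM in knockout libraries given vehicle, 9.18, 10.1, 20.5 and 15.3 FPKM in WT libraries given PD0325901 and 10.3, 14.4, 15.8 and 13.3 FPKM in WT libraries given vehicle. In each of the 4 groups the library highest in Acta2 was also the highest in Fads1. Pearson's r was 0.936 and Spearman's rho 0.968 (permutation p = 1e-05 for both, the smallest these permutations can give, adjusted p = 0.00029), while dropping the 2 libraries whose Acta2 was farthest from its median gave r 0.977. Within the library numbers 440 to 447 and 448 to 455, r was 0.854 and 0.990.

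Ebp had 1.68, 0.934, 1.97 and 3.09 FPKM in knockout libraries given PD0325901, 2.18, 1.33, 1.06 and 2.47 FPKM in knockout libraries given vehicle, 1.21, 1.502, 3.77 and 2.52 FPKM in WT libraries given PD0325901 and 1.89, 2.63, 2.69 and 1.57 FPKM in WT libraries given vehicle. Its r with Acta2 was 0.819 and rho 0.862 (permutation p = 0.00012 and 6e-05, adjusted p = 0.00155 and 0.000435), with r 0.8496 when the 2 farthest libraries were dropped and 0.530 and 0.954 within the library numbers. Pmvk, which reached 25.4 FPKM in WT library 4 given PD0325901, had r 0.7998 and rho 0.888 (permutation p = 0.00016 and 1e-05, adjusted p = 0.00155 and 0.00029; r 0.748 without the 2 farthest libraries, 0.770 and 0.692 within the library numbers). Srebf1 had r 0.789 and rho 0.832 (permutation p = 0.00038 and 0.00012, adjusted p = 0.0022 and 0.000696; r 0.773 without the 2 farthest, 0.582 and 0.809 within the library numbers), and Fads2 and Scd2 had r of 0.683 and 0.643 (adjusted p = 0.00847 and 0.0204). For Fads2 and Scd2, r was 0.507 and 0.556 without the 2 farthest libraries.

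Acaca, which makes malonyl-CoA, went the opposite way, with r −0.79 and rho −0.86 (permutation p = 0.0003 and 5e-05, adjusted p = 0.00217 and 0.000435; r −0.90 without the 2 farthest libraries, −0.71 and −0.69 within the library numbers). Elovl6, Dhcr7 and Hsd17b7 had r of −0.75, −0.74 and −0.71 (adjusted p = 0.00358, 0.00468 and 0.00718). All 10 of these members had the same sign in both sets of library numbers. By sign alone, 14 of 29 members had r above 0 (7 of 16 sterol and 4 of 7 fatty acid genes), against 50.94% of all genes tested, so neither the number of strong correlations nor the mix of signs sets the members apart from other genes. Of the 8 members with an unadjusted p under 0.05 between genotypes averaged over treatments, r with Acta2 was 0.103 for Lss, 0.007 for Acat2, 0.037 for Msmo1, −0.29 for Idi1, 0.182 for Scd1, 0.175 for Cyp51, 0.546 for Mvk and −0.33 for Fdps, with adjusted permutation p between 0.0746 and 0.979. Mvk had the smallest of these, and its rho of 0.621 had an adjusted p of 0.0343. With group means removed, r was 0.637 for Mvk and −0.66 for Fdps.

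**Figure D4:**
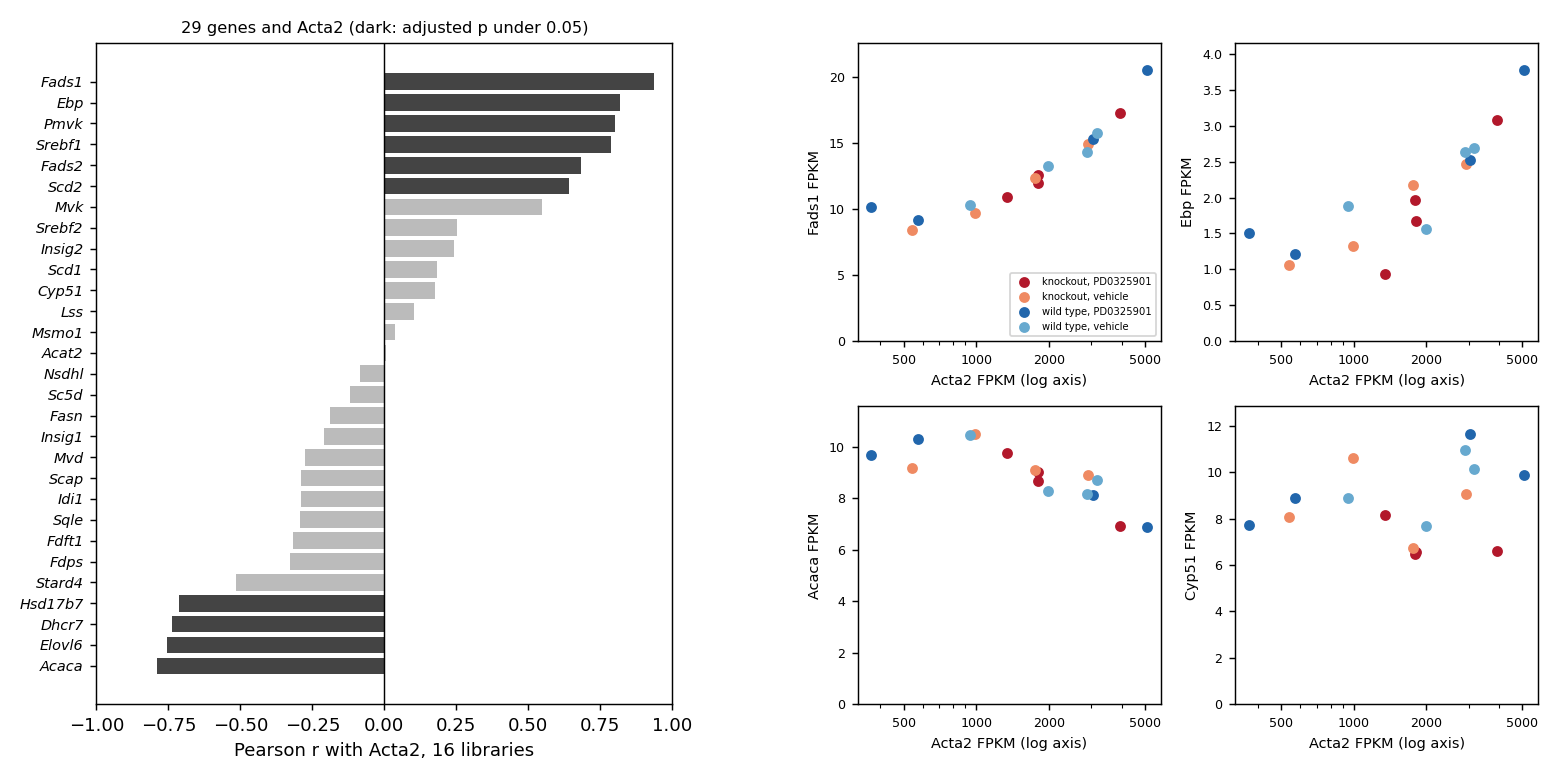
Left, Pearson r of each of the 29 tested genes with Acta2 over 16 libraries on the log2 scale, dark where the adjusted permutation p was under 0.05. Right, FPKM of Fads1, Ebp, Acaca and Cyp51 against Acta2 FPKM (log axis) per library and group; r was 0.936 for Fads1, 0.819 for Ebp, −0.79 for Acaca and 0.175 for Cyp51.

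With group means removed, the median correlation within the sterol branch was above that of gene pairs in general, given as a description over 16 libraries that share depth and cell mixture. The median pairwise r was 0.256 within the sterol branch, 0.1897 within the fatty acid branch and 0.206 between the branches, against 0.006 over all pairs of tested genes. Against the mean of the other sterol genes, r was 0.933 for Cyp51, 0.748 for Lss and 0.691 for Msmo1, but 0.064 for Pmvk, 0.050 for Fdps, 0.021 for Dhcr7, −0.08 for Idi1, −0.09 for Hsd17b7 and −0.14 for Ebp, so the branch mean does not describe every sterol gene. Outside the branch it was 0.712 for Fads2, 0.680 for Insig1, 0.553 for Scd1, 0.545 for Scd2 and −0.31 for Elovl6. The branch means themselves had r 0.709 and rho 0.765 over the 16 libraries, 0.577 with group means removed, 0.665 without the 2 farthest libraries and 0.690 and 0.797 within the library numbers. With the mean of the spermatid list, r was −0.42 for the sterol branch (−0.49 with group means removed) and −0.40 for the fatty acid branch (−0.44). With the mean of the peritubular list, it was 0.219 for the sterol branch (0.377 with group means removed) and 0.446 for the fatty acid branch (0.519).

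**Figure D5:**
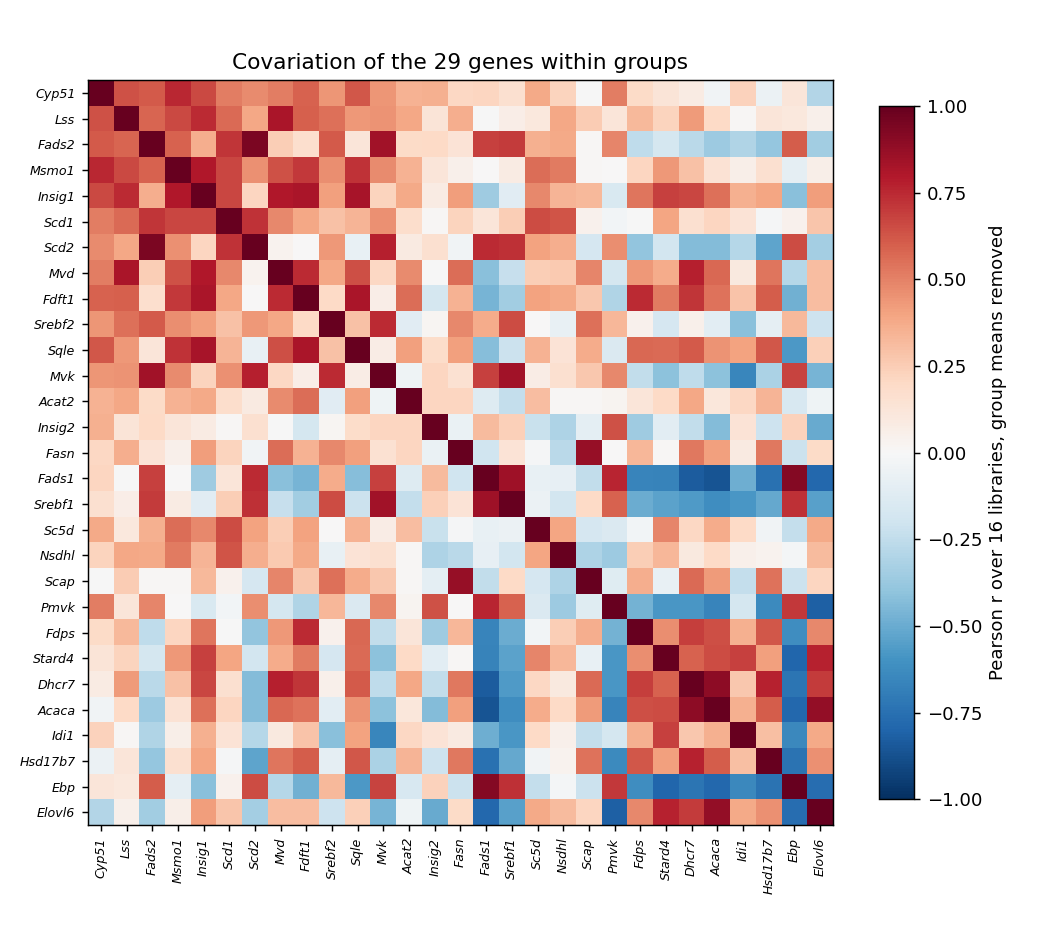
Pearson r between the 29 tested genes over 16 libraries with group means removed, red for positive and blue for negative, ordered by r with the mean of the other sterol genes. A block of Cyp51, Lss, Fads2, Msmo1, Insig1 and Scd1 is red at the upper left, and Ebp, Fads1, Srebf1 and Pmvk are blue against Dhcr7, Acaca, Hsd17b7 and Elovl6.

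Insig1, a feedback target as well as a regulator, illustrates this covariation. It had 37.1, 46.1, 37.6 and 32.4 FPKM in knockout libraries given PD0325901, 35.0, 48.2, 43.3 and 41.0 FPKM in knockout libraries given vehicle, 44.5, 36.5, 38.7 and 40.8 FPKM in WT libraries given PD0325901 and 45.5, 42.0, 51.4 and 37.1 FPKM in WT libraries given vehicle. Sqle, the epoxidase, had 10.2, 13.6, 11.2 and 10.3 FPKM, then 9.69, 14.9, 13.5 and 11.7 FPKM, then 13.7, 11.7, 11.99 and 13.3 FPKM, and 13.1, 12.6, 13.6 and 13.0 FPKM in the same order of groups. In both knockout groups library 2 was the highest for both genes, and in WT libraries given vehicle library 3 was the highest for Insig1. Outside the members, the 10 genes whose group-centred log2 values were closest to the sterol branch mean over 16 libraries were Gtf2b, Cdk5rap1, Idh3a, Mrps6, Rasgef1b, Uck2, Tor1aip2, Coq10b, Mta3 and Crkl, with r of 0.868 for the first and 0.816 for the last.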

How the data were processed

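Gene expression was measured by polyA RNA sequencing of 16 libraries of sorted undifferentiated spermatogonia, made with a kit that keeps strand, per the labels' protocols. The deposited values are FPKM computed by the authors, 1 column per library. Per the submitters' processing notes, the tools were STAR 2.7.10a, edgeR 4.0.14 and FastQC, and 2 genome builds (mm10 and GRCm39) are listed without saying which served. The counter and gene lengths behind the FPKM are not given in those notes. Of the 16 columns, 2 (WT, PD0325901, library 4 and WT, vehicle, library 4) carry 9 decimals and the others 4.

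The members and gene lists were chosen with earlier results of these data known. FPKM are not counts, so limma 3.58.1 in R 4.3.3 was fitted to log2(FPKM + 0.5) with a mean per group over all 16 libraries and a variance trend, after keeping genes with at least 1 FPKM in at least 4 libraries (12907 of 16383). P-values were Benjamini-Hochberg adjusted over all genes tested with a threshold of 0.05, and the fit was tested on simulated data. Branch medians, branch means and correlations among members have no test; the 29 correlations with Acta2 were tested by permutation over libraries. Library size was estimated from the steps between low FPKM values: of values under 100 reads, 92.4% to 93.9% per library lay within 0.1 of a whole number of reads. Shared 75-base stretches were counted on GENCODE M21 transcripts (GRCm38). Genes described are the members, at most 3 genes of each comparison with the smallest p in the other lists, and Spry4, Acta2 and marker lists as checks. The alternatives tried were pseudocounts of 0.1 and 1, filters of none and 5 FPKM, median scaling, quantile normalization, no variance trend, each library left out in turn, the replicate block, and library numbers 440 to 447 and 448 to 455 as a term or alone. A fit with the peritubular list mean as a term and a fit without the 2 columns of 9 decimals were added after seeing the data. The closing section gives their effect.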

Additional observations from a re-analysis of the deposited data

Results flagged for a closer look

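In 7 of the 120 groups of 4 libraries checked over the 30 measured genes, 1 library stood apart: its gap to the nearest other library, as a share of the group's range, was above Dixon's 95% critical value. Chance gives about 1 in 20 such groups.

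Among the knockout libraries given PD0325901, library 2 was the high one for both Cyp51, at 8.17 FPKM against 6.49 to 6.62 FPKM in the others, and Msmo1, at 6.28 FPKM against 5.17 to 5.26 FPKM. Among the knockout libraries given vehicle, library 4 was low for Acat2, at 9.23 FPKM against 11.2 to 11.6 FPKM, and high for Pmvk, at 12.6 FPKM against 5.85 to 6.49 FPKM. Among the WT libraries given PD0325901, library 3 was low for Scap, at 18.6 FPKM against 20.8 to 21.03 FPKM, and high for Scd1, at 2.30 FPKM against 1.75 to 1.83 FPKM. WT library 3 given vehicle was high for Srebf2, at 66.2 FPKM against 54.9 to 55.3 FPKM.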

How the results depend on the processing

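No member passed the adjusted threshold under any alternative in any of the 7 comparisons. Of the branch medians recomputed under alternatives, 393 stayed within the spread between replicates and 13 moved beyond it. Across all genes, 1 (Spry4) passed when the mean of the peritubular list was a term in the fit averaged over treatments.

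The sterol medians of knockout minus WT stayed below 0 under every alternative run, from −0.23 to −0.08 under vehicle and from −0.21 to −0.13 under PD0325901, while the fatty acid medians depended on which library numbers entered. In numbers 440 to 447 the fatty acid median log2 difference of knockout minus WT was 0.082 under PD0325901, −0.104 under vehicle and −0.011 averaged, and in numbers 448 to 455 it was −0.20, −0.31 and −0.25. In numbers 440 to 447 it was −0.20 for PD0325901 minus vehicle in WT and 0.19 for the interaction. Under vehicle, knockout minus WT was −0.10 with a filter of 5 FPKM and −0.042 with the peritubular term. Leaving out 1 library gave fatty acid medians of −0.18 to −0.0155 for the inhibitor in WT, lowest without WT library 3 given PD0325901. For knockout minus WT under vehicle it gave −0.25 to −0.12, nearest 0 without WT library 3 and close to that without knockout library 3; under PD0325901 it gave −0.12 to −0.04, lowest without WT library 2. It gave −0.0453 to 0.196 for the interaction, highest without WT library 3 given PD0325901 and lowest without WT library 3 given vehicle. The Insig2 interaction turned to 0.10 in numbers 440 to 447 (adjusted p = 0.931). The cause was not tested.

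Replicate numbers were not taken as pairs, and same-numbered libraries had correlations between −0.53 and 0.73. Between genotypes the best match never had the same number. Between PD0325901 and vehicle it did for WT numbers 1 and 3 (r 0.586 and 0.644) and knockout numbers 1, 2 and 4 (0.366, 0.512 and 0.734). It did not for WT numbers 2 and 4 (−0.527 and −0.164) and knockout number 3 (−0.0856). With the replicate block 0 members were called in each comparison. Each group holds 4 libraries, and genes such as Tm7sf2, Ebp and Fdps rest on few reads, which limits the precision of their values.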
